A study of Mus musculus with 6 samples.

Results

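Sestrins and feedback regulators of the PI3K-mTOR pathway were followed across 6 oligonucleotide arrays of mouse regulatory T (Treg) cells. The group comprised 10 genes, chosen with earlier results of these data known and taken by symbol. They were Sesn1, Sesn3, Pik3ip1, Irs2, Ddit4, Rictor, Phlpp1, Sgk1, Pik3r5 and Tsc1. All 10 were on the array, with 21 probe sets among the 45101 measured, and they were 10 of 18194 genes. Treg cells were sorted by flow cytometry from C57BL/6 mice of 4 kinds: Foxo1 knockout mice that also expressed a constitutively active Foxo1 (Foxo1KO/Foxo1AAA, 1 array), mice with the active form alone (Foxo1AAA, 1 array), Foxo1 knockout mice (Foxo1KO, 2 arrays) and wild-type mice (WT, 2 arrays). The labels name the cells nTreg. The study looked for genes that differ between Foxo1KO and WT and for their recovery when the knockout carries active Foxo1. The Cre driver, the deleted part of Foxo1, the site of the Foxo1AAA transgene, the ages of the mice and any pooling of mice are not given in the sources used here. No label states that replicate arrays came from separate mice. The Y-linked gene signal given below differed within each pair, so a pair was not 1 RNA measured again. The p-values below reflect only how these arrays vary, and the sources do not say what that spread covers.

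PI3K makes a membrane lipid that recruits and activates Akt, and Akt phosphorylates Foxo1, which then leaves the nucleus. Downstream, Akt relieves the TSC complex's block on Rheb and so turns on mTORC1, whereas mTORC2 in turn phosphorylates Akt and Sgk1. Foxo factors are known to transcribe several genes that act back on this pathway, among them sestrins, which restrain mTORC1 when amino acids are scarce. In Treg cells the strength of PI3K and mTOR signalling is known to shape stability and suppressive function.

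Below, 4 promoter windows are printed because Sesn1 and Pik3r5 differed most among the members that were lower in Foxo1KO, and because Irs2 held a match to a Foxo-type motif. The windows come from RefSeq on GRCm38.p6 and run from 250 bases before a transcription start to 50 bases after it. All 10 genes matched the table, with 16 windows in all. The letters GTAAACA and CAAAACA were searched on both strands, and matches are in capitals. Here Sesn1 window 1 is chr10:41810324-41810623 (+ strand), Sesn1 window 2 is chr10:41887189-41887488 (+), Irs2 is chr8:11008880-11009179 (- strand) and Pik3r5 is chr11:68431875-68432174 (+).
Sesn1 window 1: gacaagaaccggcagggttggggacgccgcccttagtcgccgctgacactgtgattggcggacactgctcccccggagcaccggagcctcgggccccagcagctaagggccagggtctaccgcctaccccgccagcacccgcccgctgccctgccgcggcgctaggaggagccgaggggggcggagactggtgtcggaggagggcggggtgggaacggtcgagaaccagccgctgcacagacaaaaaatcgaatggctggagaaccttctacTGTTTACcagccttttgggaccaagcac
Sesn1 window 2: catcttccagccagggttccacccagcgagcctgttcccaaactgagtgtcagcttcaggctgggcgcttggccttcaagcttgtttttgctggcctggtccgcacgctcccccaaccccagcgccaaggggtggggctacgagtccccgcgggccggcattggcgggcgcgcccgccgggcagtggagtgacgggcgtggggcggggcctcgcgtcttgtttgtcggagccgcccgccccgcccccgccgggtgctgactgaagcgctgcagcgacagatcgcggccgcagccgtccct
Irs2: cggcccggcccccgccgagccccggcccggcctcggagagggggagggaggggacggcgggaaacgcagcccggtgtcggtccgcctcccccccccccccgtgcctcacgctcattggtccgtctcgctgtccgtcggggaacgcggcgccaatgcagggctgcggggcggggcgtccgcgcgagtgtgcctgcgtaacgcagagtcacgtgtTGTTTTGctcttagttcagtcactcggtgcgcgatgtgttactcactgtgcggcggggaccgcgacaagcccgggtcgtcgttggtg
Pik3r5: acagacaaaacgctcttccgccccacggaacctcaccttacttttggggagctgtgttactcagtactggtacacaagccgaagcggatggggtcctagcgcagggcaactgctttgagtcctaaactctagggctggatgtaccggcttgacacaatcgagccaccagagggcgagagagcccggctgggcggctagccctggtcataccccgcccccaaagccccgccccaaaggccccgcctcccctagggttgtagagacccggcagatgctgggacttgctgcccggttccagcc
GTAAACA was found in 1 of the 16 windows, against 3.65% of all 32851 windows, and this match, read as TGTTTAC, began 23 bases into the Sesn1 transcript. CAAAACA was likewise found in 1 of 16, against 6.28% of all windows, and this match, read as TGTTTTG, began at position -37 of Irs2, counted from the start site. A match is a description of letters, not evidence of binding, and the windows without one say only that these letters are not in them.

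The arrays were first compared as a whole. Replicate arrays correlated at r = 0.996 across probe sets, and the Foxo1KO/Foxo1AAA and Foxo1AAA arrays correlated at 0.994 with each other but at 0.971 to 0.980 with the other 4. These are correlations across probe sets of the same arrays, not across independent samples. Of the 4 Foxo1 probe sets, 3 lay above log2 8 on every array. They differed by -0.49, -0.54 and -0.43 between Foxo1KO and WT (limma adjusted p = 0.035, 0.023 and 0.070 over all probe sets). In Foxo1KO/Foxo1AAA they were lower than in Foxo1KO, by -0.58, -0.76 and -1.10 in log2 units (adjusted p = 0.022, 0.0079 and 0.0021), and in Foxo1AAA they differed from WT by -0.22, -0.38 and -0.48 (adjusted p = 0.32, 0.11 and 0.065). Neither array labelled as carrying active Foxo1 thus showed a raised Foxo1 signal. A probe set outside the deleted part, or one that does not match the transgene, checks nothing, and the sources used here give neither, so group names follow the labels throughout. Of the markers that define Treg cells, Ikzf2 (13.26 to 13.63), Ctla4 (12.29 to 13.06) and Il2ra (11.15 to 11.49) were bright on all 6 arrays, whereas the probe set of Foxp3, the defining factor, was dim on every array (5.10 to 5.58). Xist was bright on the Foxo1KO (13.14 and 12.59) and WT arrays (13.43 and 12.03) and dim on the Foxo1KO/Foxo1AAA (6.27) and Foxo1AAA arrays (6.04). The Y-linked gene Eif2s3y measured 10.56 on the Foxo1KO/Foxo1AAA array and 10.59 on the Foxo1AAA array. It measured 4.05 and 9.91 on the Foxo1KO arrays, and 3.91 and 10.09 on the WT arrays. The Foxo1KO and WT arrays numbered 1 thus had Xist alone bright, and those numbered 2 had both genes bright. Both arrays with Foxo1AAA had Eif2s3y alone bright, so a dim Xist and Foxo1AAA cannot be told apart here.

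Markers of other cells set the 2 arrays with Foxo1AAA apart. The 11 myeloid markers on the array summed to 14280 and 12420 linear intensity units in Foxo1KO/Foxo1AAA and Foxo1AAA, 2883 and 1915 in Foxo1KO and 1452 and 1831 in WT. Csf1r, the receptor that defines macrophages and monocytes, measured 12.38 in Foxo1KO/Foxo1AAA and 11.99 in Foxo1AAA, 9.12 and 8.52 in Foxo1KO, and 8.36 and 8.93 in WT. Of 9 myeloid markers tested, 7 were higher in Foxo1KO/Foxo1AAA than in Foxo1KO, 8 were higher in Foxo1AAA than in WT, and 3 were higher in Foxo1KO than in WT, each with none lower. Over all genes tested, the shares in these comparisons were, in the same order, 19.6%, 13.4% and 11.2% higher and 20.2%, 14.1% and 10.7% lower. B cell markers summed to 11910 and 13720 on the arrays with Foxo1AAA, 5668 and 4089 in Foxo1KO and 6301 and 7200 in WT. Ighm, the brightest of them, measured 13.29 and 13.49 on the arrays with Foxo1AAA, 12.09 and 11.62 in Foxo1KO, and 12.42 and 12.61 in WT. Of 8 tested, 5 were higher and 0 lower in Foxo1AAA than in WT. Pax5 was not raised, with 6.65 and 6.79 on the arrays with Foxo1AAA and 6.68 and 6.95 in WT. Dendritic cell markers summed to 7514 and 6891 on the arrays with Foxo1AAA, 3004 and 1671 in Foxo1KO and 984 and 1235 in WT. H2-Aa, the brightest of them, measured 12.45 and 12.28 on the arrays with Foxo1AAA, 10.89 and 9.63 in Foxo1KO, and 8.41 and 8.90 in WT. Of 8 tested, 7 were higher and 1 lower in Foxo1AAA than in WT, and 3 were higher in Foxo1KO than in WT. Zbtb46 went the opposite way, with 6.46 and 6.26 on the arrays with Foxo1AAA and 7.06 and 7.22 in WT. CD8 T and NK cell markers summed to 1485 and 1034 on the arrays with Foxo1AAA, 1600 and 1672 in Foxo1KO and 732 and 725 in WT. Of these, 4 of 7 were called higher in Foxo1KO than in WT (Klrc1, Eomes, Xcl1 and Klrd1). The other 3 were not called: Cd8a (0.19), Cd8b1 (0.18) and Ncr1 (0.21), with limma adjusted p = 0.31, 0.21 and 0.31. Treg and CD4 T cell markers, in contrast, summed to 44830 to 50010 on all 6 arrays, a sum set mostly by the brightest genes. Of 10 tested, 2 were higher in Foxo1KO than in WT, Ctla4 (0.46) and Tnfrsf4 (0.32). A further 3 were lower: Gpr83 (-1.20), Izumo1r (-0.70) and Cd4 (-0.37). The array's log2 values have no true 0, and 1 myeloid and 1 dendritic cell marker lay below 5.47, the dimmest tested mean, on every array. The part of these cells, and of the sex chromosome signals, in the results that follow was not tested, and in bulk RNA fewer cells of a type and less RNA per cell cannot be told apart.

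**Figure D1:**
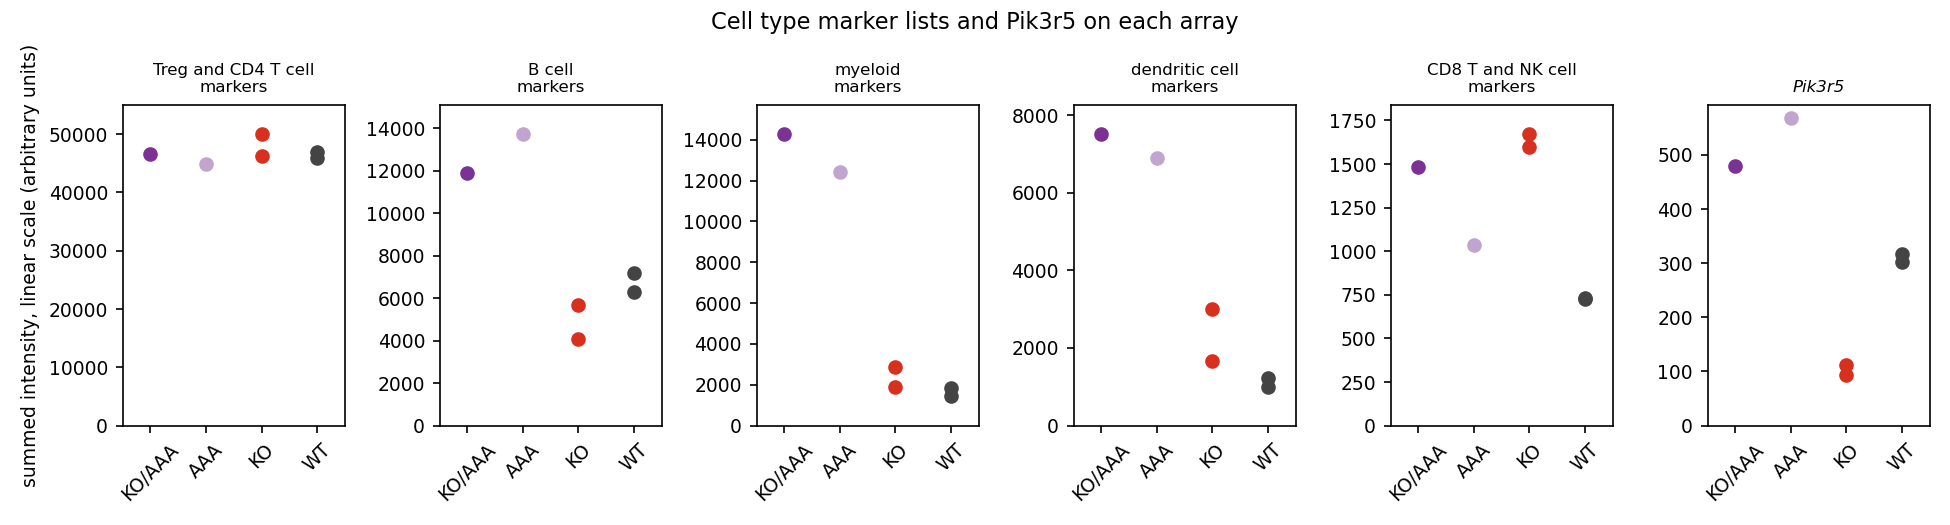
Summed linear intensity of each cell type's markers on the 6 arrays (y axis, linear scale, arbitrary units; 1 point per array; KO/AAA is Foxo1KO/Foxo1AAA, AAA Foxo1AAA and KO Foxo1KO), with the intensity of Pik3r5 in the last panel. Myeloid markers reach 14280 and 12420 units on the arrays with Foxo1AAA and at most 2883 elsewhere, while the Treg and CD4 T cell sum stays between 44830 and 50010.

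Across the 10 genes, 6 fell and 2 rose in Foxo1KO relative to WT. Over all 13645 genes tested, 21.8% were called in this comparison, 10.7% lower and 11.2% higher, at a Benjamini-Hochberg adjusted p under 0.05 from limma. The 10 members had a median log2 difference of -0.50, whereas the median over all genes was 0.03. The members were chosen with earlier results of these data known. Their counts and medians, here and below, are therefore not independent of that choice. Sesn1, Sesn3, Pik3ip1, Rictor, Phlpp1 and Pik3r5 were lower, and Ddit4 and Sgk1 were higher. Irs2 and Tsc1 were not called. Counting arrays alone, the Foxo1KO and WT arrays did not overlap for any of the 10 genes, 8 lower and 2 higher, which held for 60.2% of all genes tested (32.7% higher and 27.5% lower). Levels given below are log2 RMA values of the brightest probe set of each gene, and differences are in log2 units.

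**Figure D2:**
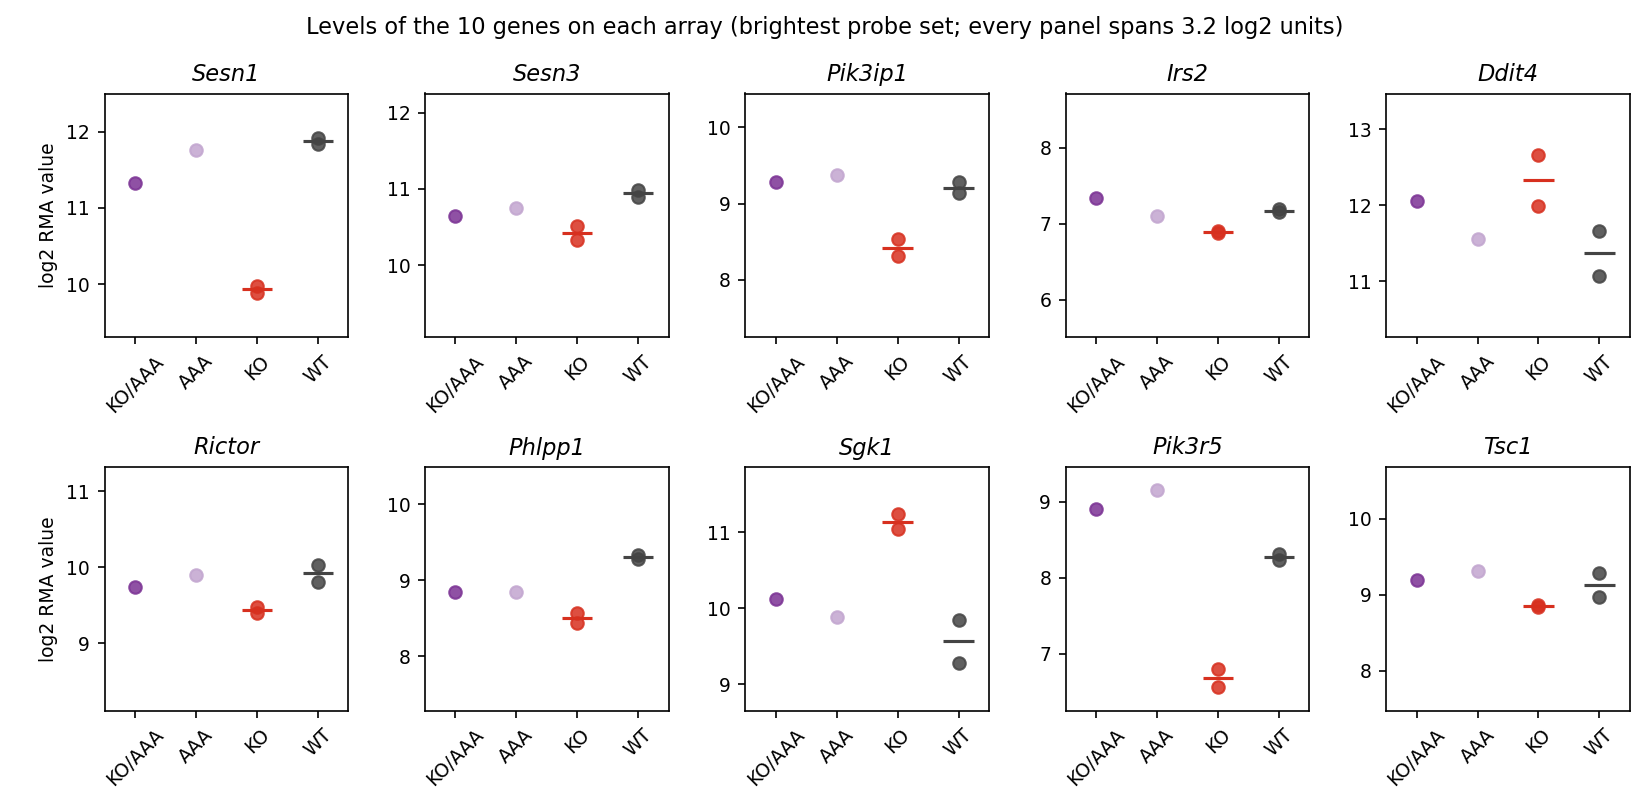
Log2 RMA value (y axis) of the brightest probe set of each gene on each array, by group (x axis; KO/AAA is Foxo1KO/Foxo1AAA, AAA Foxo1AAA, KO Foxo1KO). Points are arrays, and bars are means of groups with 2 arrays. Sesn1 and Pik3r5 are lowest and Sgk1 highest on the Foxo1KO arrays.

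The inhibitors of mTORC1 divided. Sesn1, a sestrin that signals amino acid shortage to mTORC1 and is also a p53 target, measured 11.33 in Foxo1KO/Foxo1AAA, 11.76 in Foxo1AAA, 9.97 and 9.89 in Foxo1KO, and 11.84 and 11.92 in WT. The Foxo1KO arrays lay far below the other 4. Sesn1 averaged 9.93 ± 0.06 in Foxo1KO and 11.88 ± 0.05 in WT (SD, n = 2 each). This was a 3.87-fold fall (log2 -1.95, SE 0.09, limma adjusted p = 4.4e-06), the 26th lowest difference of 13645 genes. The gene's other 3 probe sets gave -1.46, -2.05 and -2.06 and were all called lower in the fit over all probe sets. The dimmest of them measured 5.07 and 5.22 in Foxo1KO, near the floor of the array, where differences are understated.

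In Foxo1KO/Foxo1AAA cells Sesn1 rose relative to Foxo1KO by 1.40 (SE 0.12, adjusted p = 5.8e-05), with 39.8% of all genes called in that comparison, 19.6% higher and 20.2% lower. It stayed 0.55 below WT (log2 -0.55, SE 0.12, adjusted p = 0.0087). The other probe sets placed it 0.77 to 1.04 below WT (log2 -0.85, -0.77 and -1.04), and all 3 were called. Foxo1AAA alone differed from WT by -0.12, with a 95% interval of -0.38 to 0.14 and no call.

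Sesn3, a sestrin known as a Foxo target in other cells, showed a smaller difference in the same direction. It measured 10.65 in Foxo1KO/Foxo1AAA, 10.75 in Foxo1AAA, 10.33 and 10.51 in Foxo1KO, and 10.90 and 10.98 in WT. Sesn3 fell 1.44-fold in Foxo1KO (log2 -0.52, SE 0.10, adjusted p = 0.0067). With Foxo1KO replicate 1 left out it was no longer called (-0.43, adjusted p = 0.053). A second probe set fell by 0.60 (log2 -0.60, adjusted p = 0.0066 over all probe sets). Between Foxo1KO/Foxo1AAA and Foxo1KO the brightest probe set differed by 0.23 (interval -0.06 to 0.52, adjusted p = 0.18), whereas the second was called higher by 0.54 (adjusted p = 0.016). The calls of the probe sets thus differed. Whether Sesn1 and Sesn3 differed in the size of their change was not tested.

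Ddit4, which restrains mTORC1 through the TSC complex and is induced by hypoxia, glucocorticoids and amino acid shortage, moved the opposite way. It measured 12.06 in Foxo1KO/Foxo1AAA, 11.56 in Foxo1AAA, 12.00 and 12.67 in Foxo1KO, and 11.66 and 11.07 in WT. Replicates differed by more than for the other 9 members, with an SD of 0.47 in Foxo1KO and 0.42 in WT (n = 2 each). The rise in Foxo1KO was 1.95-fold (log2 0.96, SE 0.23, adjusted p = 0.018). It lost its call without Foxo1KO replicate 2 (0.63, adjusted p = 0.12) and with a robust variance prior (adjusted p = 0.076). Foxo1KO/Foxo1AAA differed from Foxo1KO by -0.27 (interval -0.92 to 0.38) and from WT by 0.69 (interval 0.04 to 1.35, adjusted p = 0.098), neither called. The difference from WT was 0.99 and called without WT replicate 1 (adjusted p = 0.0092), and 0.40 without WT replicate 2 (adjusted p = 0.26).

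Tsc1, the stabilizing subunit of the TSC complex, was not called in any of the 5 comparisons of groups by its brightest probe set. That probe set measured 9.20 in Foxo1KO/Foxo1AAA, 9.31 in Foxo1AAA, 8.85 and 8.86 in Foxo1KO, and 9.29 and 8.97 in WT. Foxo1KO minus WT was -0.28 (interval -0.55 to -0.01, adjusted p = 0.14), and without WT replicate 2 it was called lower (-0.44, adjusted p = 0.037). The other probe sets of Tsc1 were dim, with means of 6.04 and 5.55. One of these was called lower in Foxo1AAA than in WT (log2 -0.92, adjusted p = 0.0020) while the brightest differed by 0.18, so the probe sets of Tsc1 disagreed.

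Of the 3 members that act at PI3K or link receptors to it, Pik3ip1 and Pik3r5 fell in Foxo1KO and Irs2 was not called. Pik3ip1, a membrane protein that binds and inhibits the PI3K catalytic subunit, measured 9.28 in Foxo1KO/Foxo1AAA, 9.38 in Foxo1AAA, 8.31 and 8.53 in Foxo1KO, and 9.13 and 9.28 in WT. It fell 1.72-fold in Foxo1KO (log2 -0.79, SE 0.11, adjusted p = 0.0011). With Foxo1AAA in the knockout it rose 1.82-fold relative to Foxo1KO (log2 0.86, SE 0.13, adjusted p = 0.0017). The Foxo1KO/Foxo1AAA level differed from WT by 0.08 (interval -0.23 to 0.38), a difference whose sign turned when quantile normalization was repeated (-0.10). A second Pik3ip1 probe set fell in Foxo1KO by 0.72 (log2 -0.72, adjusted p = 0.020 over all probe sets) and was higher than WT by 0.64 in Foxo1KO/Foxo1AAA and by 0.80 in Foxo1AAA (adjusted p = 0.047 and 0.023).

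Pik3r5, a regulatory subunit of the PI3K gamma isoform that couples it to chemokine and other G-protein receptors, changed in all 3 altered genotypes. It measured 8.91 in Foxo1KO/Foxo1AAA, 9.15 in Foxo1AAA, 6.80 and 6.56 in Foxo1KO, and 8.24 and 8.31 in WT. The groups were ordered with both arrays carrying Foxo1AAA on top and both Foxo1KO arrays at the bottom. Pik3r5 fell 3.02-fold in Foxo1KO (log2 -1.59, SE 0.11, adjusted p = 2.3e-05), the 57th lowest difference of all genes. It rose 4.69-fold in Foxo1KO/Foxo1AAA relative to Foxo1KO (log2 2.23, SE 0.13, adjusted p = 1.0e-05). It also exceeded WT in Foxo1KO/Foxo1AAA (log2 0.63, SE 0.13, adjusted p = 0.0089) and in Foxo1AAA (log2 0.88, SE 0.13, adjusted p = 0.0024). Among all genes, 30.7% were called in the comparison of Foxo1KO/Foxo1AAA with WT (17% higher, 13.7% lower) and 27.5% in that of Foxo1AAA with WT (13.4% higher, 14.1% lower). Both arrays with these excesses over WT also had the raised myeloid marker sums given above. The sums were 14280 in Foxo1KO/Foxo1AAA and 12420 in Foxo1AAA. Pik3r5 in Foxo1KO/Foxo1AAA differed from Foxo1AAA by -0.25 (interval -0.60 to 0.11), which was not called. On the other arrays the myeloid sum was 2883 and 1915 in Foxo1KO, and 1452 and 1831 in WT. The part of myeloid cells in these differences was not tested.

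Irs2, the adaptor that links insulin and IGF receptors to PI3K, measured 7.34 in Foxo1KO/Foxo1AAA, 7.10 in Foxo1AAA, 6.88 and 6.90 in Foxo1KO, and 7.15 and 7.19 in WT. Foxo1KO lay below WT by 0.28 (log2 -0.28, SE 0.09), which missed the threshold (adjusted p = 0.058, range over alternatives 0.035 to 0.22). Foxo1KO/Foxo1AAA was higher than Foxo1KO by 0.45 (SE 0.11, adjusted p = 0.014).

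At the level of Akt and its relatives, Rictor and Phlpp1 fell and Sgk1 rose. Rictor, the subunit that defines mTORC2, measured 9.74 in Foxo1KO/Foxo1AAA, 9.90 in Foxo1AAA, 9.40 and 9.47 in Foxo1KO, and 10.03 and 9.81 in WT. It fell 1.39-fold in Foxo1KO (log2 -0.48, SE 0.11, adjusted p = 0.012). This call ended without WT replicate 1 (-0.37, adjusted p = 0.078) or Foxo1KO replicate 1 (-0.44, adjusted p = 0.076). Of 5 Rictor probe sets 4 were called lower in Foxo1KO (log2 -0.45 to -0.70), and the dimmest gave -0.20 with no call. Between Foxo1KO/Foxo1AAA and Foxo1KO Rictor differed by 0.30 (interval 0.01 to 0.60, adjusted p = 0.097), which was not called, and it differed from WT there by -0.18 (interval -0.47 to 0.12).

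Phlpp1, a phosphatase that removes an activating phosphate from Akt, was lower than WT in all 3 altered genotypes. It measured 8.85 in Foxo1KO/Foxo1AAA, 8.84 in Foxo1AAA, 8.44 and 8.57 in Foxo1KO, and 9.27 and 9.33 in WT. The fall was 1.74-fold in Foxo1KO (log2 -0.80, SE 0.10, adjusted p = 4.6e-04). Foxo1KO/Foxo1AAA and Foxo1AAA each lay 0.46 below WT (log2 -0.46 each, SE 0.12, adjusted p = 0.021 and 0.022), and both calls ended without WT replicate 2 (adjusted p = 0.069 and 0.072). The rise in Foxo1KO/Foxo1AAA relative to Foxo1KO was 0.34 (SE 0.12, adjusted p = 0.048). It lost its call with no filter on dim genes (adjusted p = 0.053), with repeated quantile normalization (0.14, adjusted p = 0.34) and when any 1 of the 4 replicated arrays was left out (adjusted p = 0.055 to 0.16).

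Sgk1, a kinase activated by PI3K through mTORC2 and able to phosphorylate Foxo factors, was the member that rose most. It measured 10.12 in Foxo1KO/Foxo1AAA, 9.88 in Foxo1AAA, 11.04 and 11.23 in Foxo1KO, and 9.85 and 9.28 in WT. Both Foxo1KO arrays lay above the other 4. Sgk1 averaged 11.14 ± 0.13 in Foxo1KO and 9.56 ± 0.40 in WT (SD, n = 2 each), a 2.98-fold rise (log2 1.57, SE 0.17, adjusted p = 2.5e-04). It was 2.02-fold lower in Foxo1KO/Foxo1AAA than in Foxo1KO (log2 -1.01, SE 0.21, adjusted p = 0.0060). The remaining difference from WT was 0.56 (interval 0.09 to 1.04, adjusted p = 0.072). It was called with a trended variance prior (adjusted p = 0.042) and without WT replicate 1 (0.85, adjusted p = 0.0020), and was 0.28 without WT replicate 2 (adjusted p = 0.24).

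**Figure D3:**
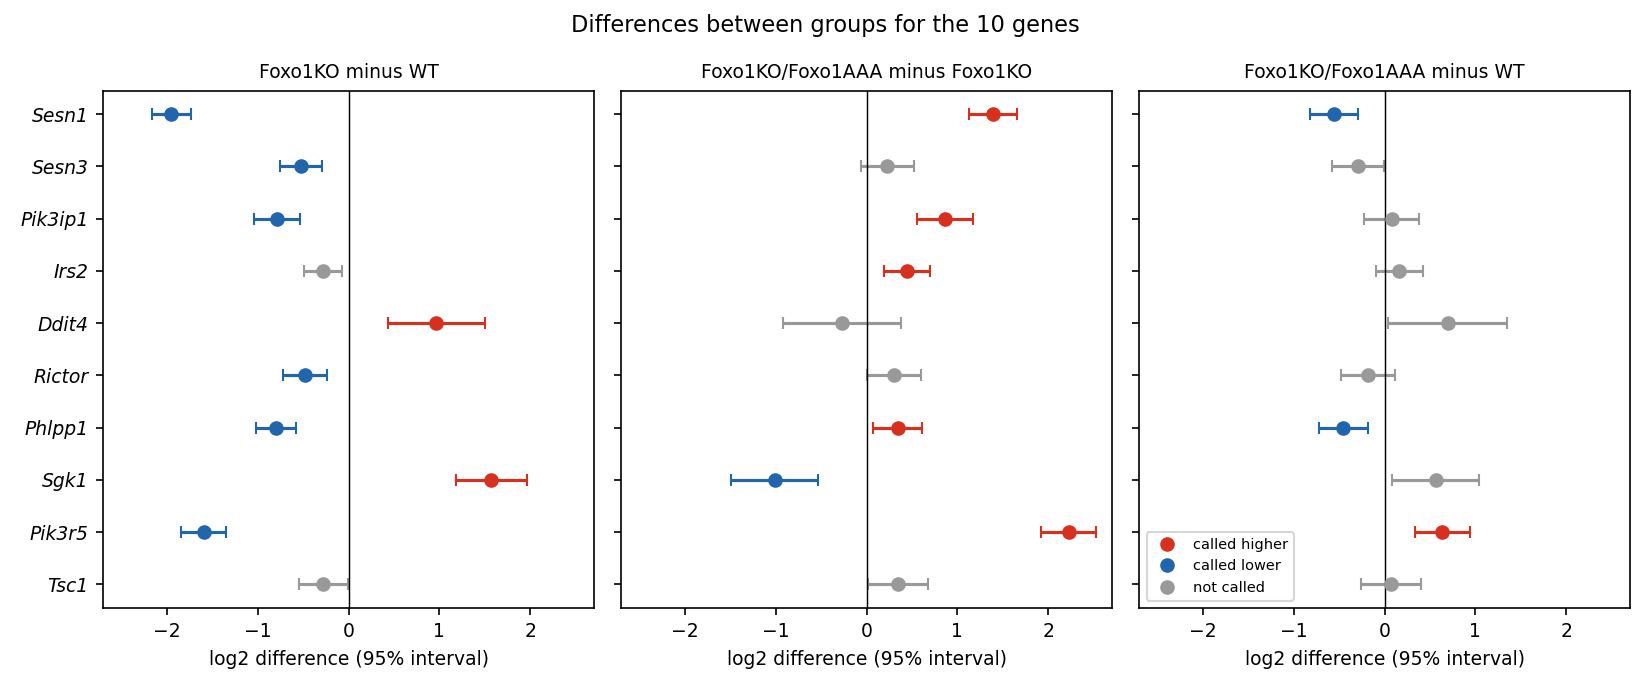
Log2 differences (x axis, points) with 95% intervals from limma (bars) for the 10 genes (rows) in 3 comparisons. In Foxo1KO minus WT, Sesn1 is at -1.95 and Sgk1 at 1.57. In Foxo1KO/Foxo1AAA minus WT, Sesn1 and Phlpp1 are called lower and Pik3r5 higher.

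In Foxo1KO/Foxo1AAA relative to Foxo1KO, 5 members were called higher (Sesn1, Pik3ip1, Irs2, Phlpp1 and Pik3r5), Sgk1 was called lower and 4 were not called. Of all genes, 19.6% were higher and 20.2% lower in this comparison. The median was 0.34 for the members against -0.02 over all genes. This comparison shares the Foxo1KO arrays with that of Foxo1KO and WT. Relative to WT, Foxo1KO/Foxo1AAA had 1 member higher (Pik3r5) and 2 lower (Sesn1 and Phlpp1), and Foxo1AAA had 1 higher (Pik3r5) and 1 lower (Phlpp1). Over all genes the shares were 17% higher and 13.7% lower in Foxo1KO/Foxo1AAA, and 13.4% higher and 14.1% lower in Foxo1AAA. Both arrays with Foxo1AAA carried the raised myeloid sums, so Foxo1KO/Foxo1AAA was also set against Foxo1AAA. There limma called 0 of 10 members and 0.0733% of all genes (0.066% higher, 0.00733% lower), with 1 array on each side. At an unadjusted p under 0.05 Sesn1 was lower (log2 -0.44, interval -0.74 to -0.13, unadjusted p = 0.011), and the other 9 were not. The largest other differences there were Ddit4 at 0.50 (interval -0.25 to 1.26), Pik3r5 and Sgk1 at -0.25 and 0.25 (intervals -0.60 to 0.11 and -0.30 to 0.79) and Irs2 at 0.24 (interval -0.05 to 0.53). The lone arrays were assumed to vary like the WT and Foxo1KO pairs.

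An interaction term tested whether Foxo1AAA altered the knockout difference. It was called for 4 members: Sesn1 (1.52, adjusted p = 0.0023), Phlpp1 (0.80, adjusted p = 0.028), Sgk1 (-1.33, adjusted p = 0.036) and Pik3r5 (1.35, adjusted p = 0.0057). Among all genes 5.94% were called, 2.81% higher and 3.14% lower. In each of these genes the knockout difference was nearer to 0 with Foxo1AAA than without it. The Phlpp1 and Sgk1 calls ended without Foxo1KO replicate 1 (adjusted p = 0.074 and 0.073) or replicate 2 (0.054 and 0.11).

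All 21 probe sets were also fitted together with every probe set of the array. In Foxo1KO 14 were lower, 2 were higher and 5 were not called, while 8.34% of all 45101 probe sets were lower and 5.37% higher (13.7% in all). The 5 were those of Irs2 and Tsc1 and the dimmest of Rictor. In Foxo1KO/Foxo1AAA relative to Foxo1KO 9 of the 21 were higher and 1 lower, against 14.4% and 16.2% of all probe sets (30.7% in all). In Foxo1AAA relative to WT 2 were higher and 3 lower, against 10.4% and 13.2% (23.6% in all). In Foxo1KO/Foxo1AAA relative to WT 2 were higher and 6 lower, against 11.7% and 12.7% (24.3% in all). Relative to Foxo1AAA 0 of 21 were called there, against 0.0377% higher and 0.0177% lower of all probe sets (0.0554% in all). The interaction was called for 4 probe sets, all higher, against 1.73% higher and 1.25% lower of all probe sets (2.98% in all). They were 3 of the 4 Sesn1 probe sets and that of Pik3r5, and the interactions of Phlpp1 (adjusted p = 0.053) and Sgk1 (adjusted p = 0.057) were not called in this fit. Probe sets of the same gene share a transcript and are not independent. The names of 2 Sesn1 probe sets end in s, which marks probes that match more than 1 transcript.

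**Figure D4:**
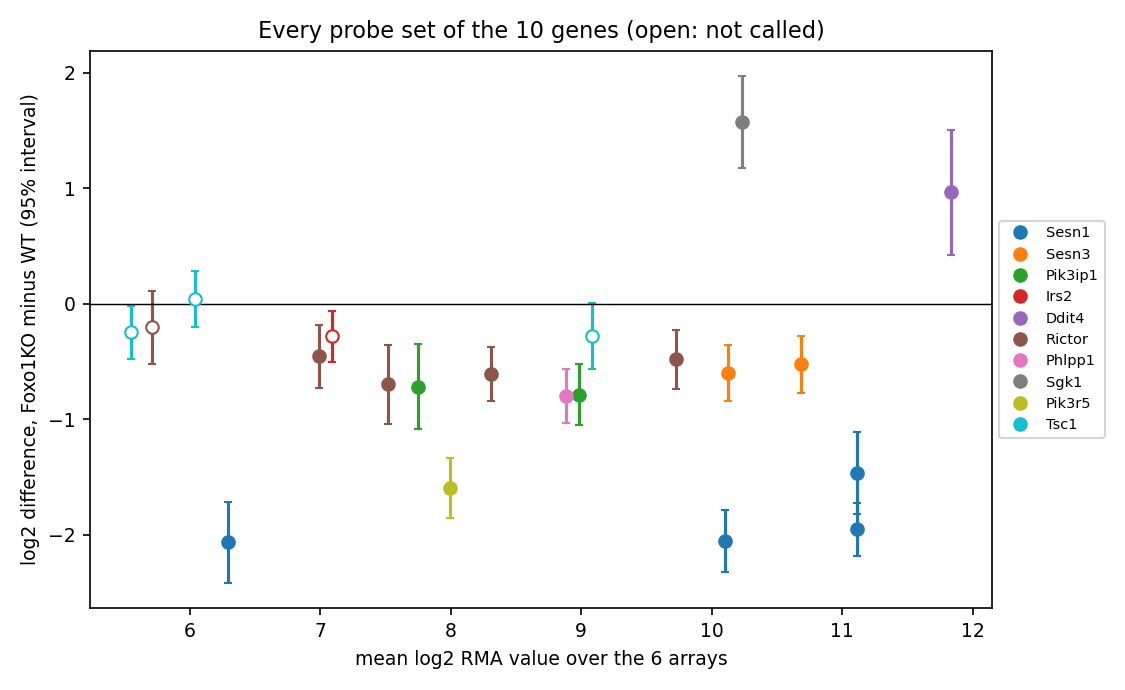
Log2 difference of Foxo1KO minus WT (y axis, bars are 95% intervals) for each of the 21 probe sets against its mean log2 RMA value over the 6 arrays (x axis), coloured by gene. Filled points are called and open ones are not. The 4 Sesn1 probe sets lie between -1.46 and -2.06 at very different brightness.

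The other genes of the pathway were counted by role, from 105 genes of which 93 were tested. In Foxo1KO 16 were lower and 11 higher than WT, with a median of -0.03, against 10.7% lower and 11.2% higher of all genes. This count of 27 pathway genes fell when either Foxo1KO array was left out. None of 9 class I PI3K subunits and adaptors was called, and the smallest p was that of Pik3ap1 (0.23, adjusted p = 0.15). Of 5 genes of receptors and receptor adaptors 3 were lower. Igf1r, the IGF receptor, measured 9.66 in Foxo1KO/Foxo1AAA, 9.94 in Foxo1AAA, 7.61 and 7.21 in Foxo1KO, and 9.01 and 9.11 in WT. It fell by 1.65 (SE 0.14, adjusted p = 5.5e-05). The adaptor Gab3 fell by 0.64 and the insulin receptor Insr by 0.73. The Insr call ended when its probe sets were averaged (-0.25, adjusted p = 0.054).

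Of 6 phosphoinositide phosphatases 2 fell and 1 rose. Inpp4b, which removes a phosphate from PI3K lipid products, fell by 0.91 (adjusted p = 0.0028). Of 9 Akt-related genes 3 fell and 2 rose. Trib2, a pseudokinase, measured 12.26 in Foxo1KO/Foxo1AAA, 12.43 in Foxo1AAA, 10.71 and 10.63 in Foxo1KO, and 12.26 and 12.23 in WT, a fall of 1.57 in the knockout (adjusted p = 1.1e-05). Sgk3, the relative of Sgk1, fell by 0.74 (adjusted p = 0.0013), opposite to Sgk1. Among 9 further subunits and inhibitors of the mTOR complexes, Prr5l, an mTORC2-associated protein, alone was called (-0.93, adjusted p = 7.4e-04).

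Of 12 genes of the TSC complex, Rheb and AMPK 3 fell and 1 rose, led by the AMPK subunit gene Prkab2 (-0.74, adjusted p = 7.9e-04). The amino acid sensing genes were mostly uncalled: 4 of 25 rose and 2 fell. Fnip2, a partner of folliculin, rose by 1.56 (adjusted p = 4.5e-05) and Castor1, the arginine sensor, by 1.33 (adjusted p = 5.3e-05). Sesn2, the remaining sestrin, measured 8.04 in Foxo1KO/Foxo1AAA, 8.05 in Foxo1AAA, 7.75 and 7.49 in Foxo1KO, and 7.52 and 7.77 in WT, and was not called in Foxo1KO relative to WT (adjusted p = 0.93). Of 9 mTORC1 substrates 2 rose and 1 fell. The translation repressor Eif4ebp1 rose by 0.81 (adjusted p = 0.0015) and the translation inhibitor Pdcd4 fell by 0.73 (adjusted p = 7.8e-04). Of 9 amino acid and glucose transporters 1 rose and 1 fell. These were Slc3a2 (0.43), whose call ended without WT replicate 2 or Foxo1KO replicate 2 (adjusted p up to 0.13 over alternatives), and Slc7a6 (-0.51), no longer called with Foxo1KO replicate 1 left out (adjusted p = 0.066).

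**Figure D5:**
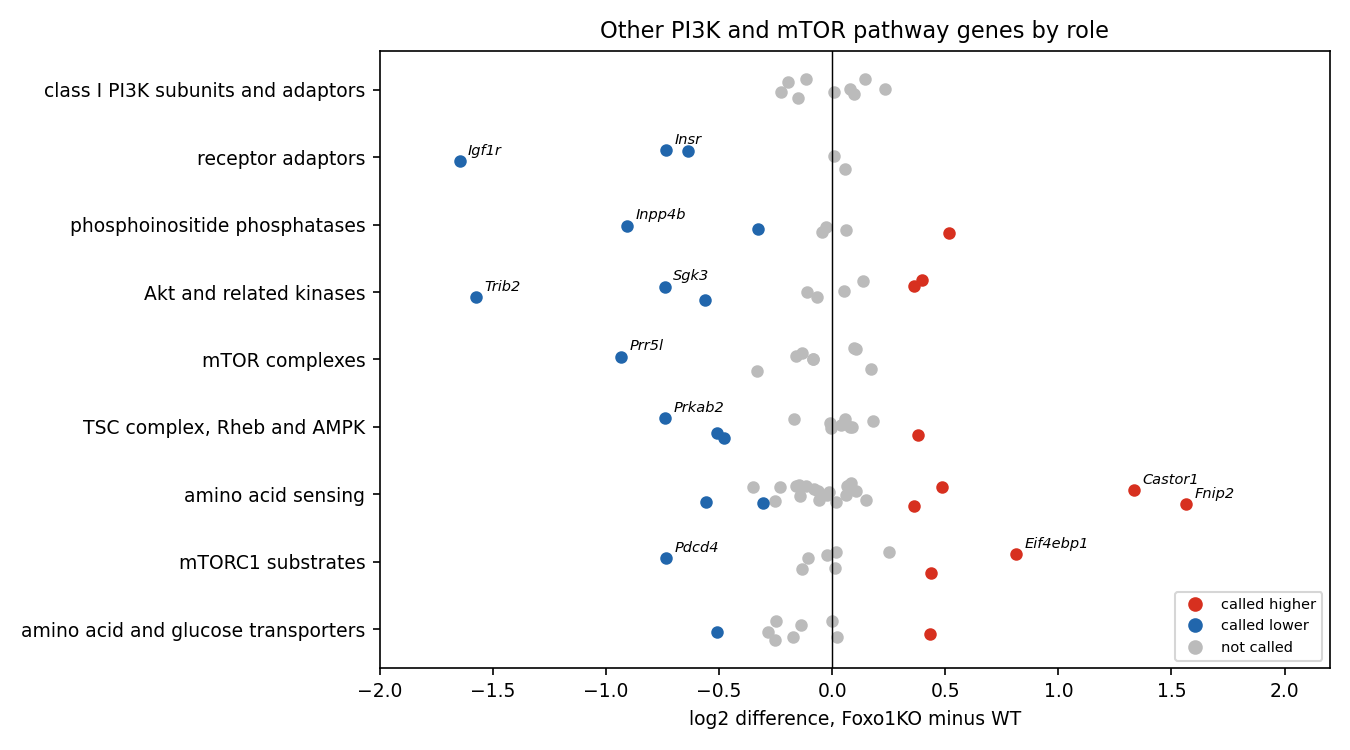
Log2 difference of Foxo1KO minus WT (x axis) for 93 further pathway genes (points) by role (rows), in red where called higher, blue where called lower and grey where not called; genes beyond 0.7 in size are named. Igf1r and Trib2 lie lowest and Fnip2 and Castor1 highest.

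In Foxo1KO/Foxo1AAA relative to Foxo1KO, 18 of the 93 pathway genes were higher and 8 lower, against 19.6% higher and 20.2% lower of all genes. With repeated quantile normalization the split was 12 higher and 16 lower. Igf1r rose by 2.25 (adjusted p = 3.2e-05), Trib2 by 1.60 (adjusted p = 2.6e-05), Prr5l by 1.49 (adjusted p = 1.9e-04), Inpp4b by 1.30 (adjusted p = 0.0011) and Gab3 by 1.14 (adjusted p = 3.1e-04). Castor1 was lower by 1.76 (log2 -1.76, adjusted p = 3.7e-05). Fnip2 differed by -0.19 and was not called, while in Foxo1AAA it was higher than WT by 1.62 (adjusted p = 2.0e-04). In Foxo1AAA relative to WT 11 pathway genes were higher and 4 lower, against 13.4% higher and 14.1% lower of all genes. With repeated quantile normalization 9 were higher and 8 lower. Igf1r exceeded WT in Foxo1AAA by 0.88 (adjusted p = 0.0065). Both arrays with Foxo1AAA carried the raised myeloid, B and dendritic cell marker sums, whose part in these counts was not tested.

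Genes known to respond to the same inputs as the members were counted in Foxo1KO relative to WT. There 11.2% of all genes were higher and 10.7% lower. Of 13 p53 targets 2 rose and 2 fell, with a median of 0.07. Cdkn1a, an inhibitor of cyclin-dependent kinases, rose by 1.25 and Btg2, an antiproliferative gene, fell by 1.01, while the p53 target Sesn1 fell. Of 14 hypoxia-induced genes 4 rose and 1 fell, with a median of 0.06, led by P4ha1, a collagen-modifying enzyme (-1.31), and the transcription factor Bhlhe40 (0.94). Of 12 ATF4-induced genes, which answer amino acid shortage, 3 rose and 1 fell, with a median of 0.13. Asns, the asparagine synthetase gene, rose by 0.55, and the pseudokinase gene Trib3 fell by 0.56, which was not called with Foxo1KO replicate 2 left out (adjusted p = 0.061). Of 15 immediate early genes 1 rose and 3 fell, with a median of -0.01, and the transcription factors Egr3 (-0.94), Egr2 (-0.92) and Egr1 (-0.68) were the 3.

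Glucocorticoids are an input shared by Sgk1 and Ddit4. Glucocorticoid-induced genes had the highest median of the 5 lists, 0.48 over 10 genes, with 5 higher and 1 lower. The gene called lower was Klf9 (-0.44, limma adjusted p = 0.014). The transglutaminase gene Tgm2 measured 9.61 in Foxo1KO/Foxo1AAA, 9.49 in Foxo1AAA, 10.04 and 10.11 in Foxo1KO, and 6.31 and 6.64 in WT. It rose by 3.60 (SE 0.12, adjusted p = 6.3e-07). The metallothionein gene Mt1 rose by 2.77 (adjusted p = 7.5e-07) and the receptor co-chaperone gene Fkbp5 by 0.83 (adjusted p = 4.8e-04). Tsc22d3, among the best known glucocorticoid-induced genes in T cells, differed by -0.88 and was not called (adjusted p = 0.063). In Foxo1AAA relative to WT, Tgm2 and Mt1 were higher by 3.01 and 1.71 (adjusted p = 1.2e-05 and 4.7e-05), while Sgk1 differed by 0.32 (adjusted p = 0.29). For Sgk1 this was 0.60 without WT replicate 1 and 0.033 without WT replicate 2. The part of glucocorticoids in these differences was not tested.

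The genes whose profile over the 6 arrays was most like that of 2 members were found by Euclidean distance, each profile centred on its WT mean. For Sesn1 these were Card6 (0.17), Itga4 (0.28) and Klf3 (0.31), against a median distance of 2.88 over all genes. Card6 measured 10.51 in Foxo1KO/Foxo1AAA, 10.74 in Foxo1AAA, 9.02 and 8.91 in Foxo1KO, and 10.85 and 10.97 in WT. For Sgk1 they were Scpep1 (0.23), Cmtm7 (0.28) and 9630013D21Rik (0.36), against a median of 2.42. Scpep1 measured 9.86 in Foxo1KO/Foxo1AAA, 9.74 in Foxo1AAA, 11.07 and 11.13 in Foxo1KO, and 9.73 and 9.09 in WT. These are descriptions over 6 arrays, with no test.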

How the data were processed

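Transcripts were measured in sorted Treg cells from total RNA, labelled as biotin cRNA, on 6 arrays. Deposited array values are in log2 units. RMA, R 2.15 and limma 3.12.1 were named in the submitters' processing notes, with no role or order. RMA includes quantile normalization, which hides a shift of most transcripts in 1 direction, and array values flatten near background. The deposited arrays nevertheless did not share 1 distribution. The upper quartile was 8.435 in Foxo1KO/Foxo1AAA, 8.422 in Foxo1AAA, 8.206 and 8.259 in Foxo1KO, and 8.318 and 8.286 in WT. Repeated quantile normalization moved the median of Foxo1KO/Foxo1AAA minus Foxo1KO over all genes from -0.02 to -0.09. Comparisons with the Foxo1AAA arrays thus depend in part on scaling. Array number limits the precision.

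Of 45101 probe sets, 34958 were listed with 1 gene, 932 with several and 9211 were not listed; the last 2 kinds were left out of the gene fit. The probe set with the highest mean stood for each of 18194 genes, and the lowest 25% by mean were left out, leaving 13645 genes with a mean of at least 5.47. The model, from limma 3.58.1 under R 4.3.3, had a mean for each group (1 coefficient a group; 2 residual and 6.59 prior degrees of freedom). Residual variance was estimated within the replicated groups. Tests were two-sided with Benjamini-Hochberg adjusted p, and 5 comparisons and an interaction were made. All 10 members passed the filter. An exact permutation test of 2 arrays against 2 was not used.

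The fit was tested on simulated data. Members and gene lists were chosen with earlier results of these data known. From each list the up to 4 called genes with the largest difference in Foxo1KO, or the 1 with the smallest p, could be named, as could all Treg, Foxo and sex chromosome genes, and the 3 genes nearest in profile to Sesn1 and to Sgk1. Csf1r, Sesn2, Tsc22d3, Klf9, Zbtb46, Pax5, Cd8a, Cd8b1 and Ncr1 were added after their values were seen. The same holds for the pathway counts under each alternative. Alternatives were other filters, probe set averaging, variance priors, repeated quantile normalization, a replicate block and leaving out arrays.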

Additional observations from a re-analysis of the deposited data

Results flagged for a closer look

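The knockout differences with and without Foxo1AAA differed, by a test of that difference in the gene-level fit, for 4 of the 10 genes. Among all genes tested, 5.94% were called by it, 2.81% higher and 3.14% lower. The interaction, Foxo1KO/Foxo1AAA minus Foxo1AAA less Foxo1KO minus WT, was 1.52 for Sesn1 (SE 0.16), 1.35 for Pik3r5 (SE 0.19), 0.80 for Phlpp1 (SE 0.17) and -1.33 for Sgk1 (SE 0.30) in log2 units. In the fit over all probe sets of the array, the interactions of Phlpp1 and Sgk1 missed the threshold (adjusted p = 0.053 and 0.057). With Foxo1AAA the knockout differences of Sesn1, Pik3r5, Phlpp1 and Sgk1 were -0.44, -0.25, 0.00 and 0.25, each from 1 array against 1. Without it they were -1.95, -1.59, -0.80 and 1.57. The interaction sets 2 arrays with high myeloid marker sums against each other and 4 arrays with low ones against each other. The part of those cells in it was not tested.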

How the results depend on the processing

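The counts of members called moved by at most 1.5 times under every alternative except when an array was left out. Leaving out 1 replicated array gave 6 to 9 members in Foxo1KO minus WT, 5 in Foxo1KO/Foxo1AAA minus Foxo1KO, 1 to 3 in Foxo1AAA minus WT, 2 to 5 in Foxo1KO/Foxo1AAA minus WT, 0 in Foxo1KO/Foxo1AAA minus Foxo1AAA and 2 to 4 for the interaction. The pathway count in Foxo1KO minus WT was 14 to 21 in these fits, against 27. These fits have fewer arrays and less residual information. No member turned its sign in Foxo1KO minus WT or the interaction. The signs that turned belonged to differences that were not called. Averaging probe sets gave Tsc1 -0.069 against Foxo1KO, -0.23 against WT and 0.050 against Foxo1AAA in Foxo1KO/Foxo1AAA, and -0.28 in Foxo1AAA against WT; the dim Tsc1 probe sets differ from the bright one. Repeated quantile normalization gave -0.10 for both Pik3ip1 and Tsc1 in Foxo1KO/Foxo1AAA minus WT and -0.020 for Phlpp1 in Foxo1KO/Foxo1AAA minus Foxo1AAA. Leaving out 1 array gave, in Foxo1AAA minus WT, -0.13 to 0.093 for Rictor and -0.11 to 0.49 for Ddit4. It gave -0.092 to 0.23 for Tsc1 in Foxo1KO/Foxo1AAA minus WT and -0.61 to 0.065 for Ddit4 in Foxo1KO/Foxo1AAA minus Foxo1KO; the cause was not tested. Leaving out the lowest 50% of genes removed Irs2.

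Deviations of same-numbered Foxo1KO and WT arrays correlated at r = -0.10 across genes, and no label ties the numbers to a litter, batch or day. Same-numbered arrays did share their sex chromosome signals: Eif2s3y was 4.05 and 3.91 on the Foxo1KO and WT arrays numbered 1, and 9.91 and 10.09 on those numbered 2. With the replicate number as a block 8 members were called, 2 higher and 6 lower, as without it, and 22 pathway genes, against 27.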
